A study of Mus musculus with 6 samples.

Results

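The miRNAs described here are the miR-219 and miR-338 group, 6 mature miRNAs known from myelinating glia. They were chosen by name among the 1926 miRNA features of the deposited RPM table (its unit is the reads of a miRNA after scaling every library to an equal total), as mmu-miR-219a-5p, mmu-miR-219a-1-3p, mmu-miR-219a-2-3p, mmu-miR-219b-5p, mmu-miR-338-3p and mmu-miR-338-5p. The species prefix is left out below. All 6 names were found, each in a row of its own. Of these, 4 were above 0 in every library, and miR-219a-5p and miR-219b-5p were listed at 0 in all libraries. The libraries hold small RNA from extracellular vesicles, membrane-bound particles shed by cells, that were isolated from the brains of mice (brain-derived extracellular vesicles, BDEV). One group of 3 libraries came from mice that had passed through status epilepticus, a prolonged seizure (SE-BDEV 1 to 3), and the other 3 came from control mice (CON-BDEV 1 to 3). All titles carry day 10. The labels do not give the starting point of that count, the convulsant, or the strain, age and sex of the mice. They also do not say whether each library is a separate animal, and the p-values then reflect the spread among these libraries alone, which may be technical.

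Oligodendrocytes wrap axons in myelin, and they arise from dividing precursor cells that must leave the cell cycle before they mature. miR-219a-5p and miR-338-3p are known to be switched on during this step and to repress messages that hold precursors in the dividing state, among them those for the growth factor receptor Pdgfra and the transcription factors Sox6 and Hes5. Each miRNA is cut from a hairpin as a 5p and a 3p arm. One arm is usually kept as the guide that finds targets through its seed, bases 2 to 8, and the other arm is mostly degraded.

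RefSeq (GRCm38.p6) held a mature sequence for 5 of the 6 members. These 5 are shown because the arms and seeds tell the members apart. Sequences run 5′ to 3′, and capitals mark the seed.
miR-338-3p: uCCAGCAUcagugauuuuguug
miR-338-5p: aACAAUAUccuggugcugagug
miR-219a-5p: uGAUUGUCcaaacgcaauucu
miR-219a-1-3p: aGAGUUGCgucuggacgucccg
miR-219b-5p: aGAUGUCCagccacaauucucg
The 5 seeds are all different, and no other mature miRNA among the 1679 names of that RefSeq table shares any of them. These 5 members therefore form no seed family, and the seed of miR-219a-2-3p was not compared.

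The hairpins are shown because 2 of them give the same guide. Capitals mark the mature arms that the RefSeq table holds.
Mir219a-1: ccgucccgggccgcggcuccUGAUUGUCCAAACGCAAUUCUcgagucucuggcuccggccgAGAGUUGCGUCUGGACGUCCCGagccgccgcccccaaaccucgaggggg
Mir219a-2: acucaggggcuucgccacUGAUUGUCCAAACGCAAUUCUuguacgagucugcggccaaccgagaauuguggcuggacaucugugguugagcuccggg
Mir338: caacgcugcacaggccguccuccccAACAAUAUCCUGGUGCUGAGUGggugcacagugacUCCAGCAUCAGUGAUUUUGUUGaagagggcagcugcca
miR-219a-5p lies in both Mir219a-1, on chromosome 17, and Mir219a-2, on chromosome 2, so its reads cannot be assigned to one hairpin. The 3p arms differ between these hairpins and are listed apart. miR-219b-5p comes from Mir219b, which is transcribed from the strand opposite Mir219a-2, and it is the reverse complement of positions 60 to 81 of that hairpin, counted from 1 at its 5′ end. In GENCODE M21 (GRCm38) Mir338, on chromosome 11, lies in an intron of Aatk, a gene for a kinase of neural tissue, on the same strand. Mir219a-1 overlaps an exon of the long noncoding RNA Gm26940 on the same strand, between Ring1 and H2-Ke6. Mir219a-2 overlaps no gene other than Mir219b and lies between Urm1 and Cercam. The submitters' processing notes name the older build mm9, so no coordinates are given.

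Depth ranged from 4400167 to 9391887 reads assigned to miRNAs, with 532 to 631 miRNAs above 0 per library. Both libraries numbered 3 stood apart on miR-24-3p, which was listed at 0 in the other 4 libraries, while CON-BDEV 3 had 3544 RPM and SE-BDEV 3 had 3128 RPM. Results are therefore also given without both. Together the 6 members made up 0.0154% to 0.0183% of the reads in CON-BDEV and 0.0215% to 0.0311% in SE-BDEV. Their summed level was 154 to 183 RPM over the controls and 215 to 311 RPM over the SE-BDEV libraries, with miR-338-3p as the largest part in every library. By comparison, 6 neuronal miRNAs (miR-124-3p, miR-128-3p, miR-129-5p, miR-137-3p, miR-138-5p and miR-132-3p) summed to 23847 to 28808 RPM in CON-BDEV and 20584 to 36614 RPM in SE-BDEV.

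miR-338-3p, the guide arm of Mir338, was the most abundant member. It stood at 110.0, 144 and 128 RPM in CON-BDEV 1, 2 and 3, and at 207, 159.5 and 275 RPM in SE-BDEV 1, 2 and 3. All 3 SE-BDEV values lay above the highest control, and SE-BDEV 2 was nearest to the controls and SE-BDEV 3 farthest from them. These levels rest on 484 to 1942 reads per library, and the miRNA ranked between 85 and 126 by level. The control mean was 127 ± 16.9 RPM and the SE-BDEV mean 214 ± 58.3 RPM (SD, n = 3), a ratio of 1.68. On the log2(RPM + 1) scale the difference was 0.72 ± 0.32 (SE), with a 95% interval of 0.032 to 1.40 before adjustment. It did not pass the threshold of 0.05 over the 308 miRNAs that averaged at least 10 RPM (limma adjusted p = 0.438, Benjamini-Hochberg, and 0.0414 unadjusted).

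The size of this difference is read against all tested miRNAs. Their median log2 difference was 0.061, with an interquartile range of -0.25 to 0.36. limma called 3 of 308, or 0.974%, and neither of the tested members was among them. With the replicate number as a block it called 10 of 308, or 3.25%, again without a member. Of the 308, 10.7% had all SE-BDEV values above all CON-BDEV values, as miR-338-3p did, and 8.12% had an unadjusted p under 0.05 with higher values in SE-BDEV. miR-338-3p was number 24 in order of p. Its difference was 0.53 ± 0.39 without both libraries numbered 3 (limma adjusted p = 0.691). In the authors' deposited table its log2 fold change was 0.64 with a standard error of 0.28 (DESeq2 adjusted p = 0.399, and 0.0217 unadjusted). By that comparison 1.12% of the miRNAs given an adjusted p were under 0.05, and 6.52% were under 0.05 unadjusted.

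**Figure D1:**
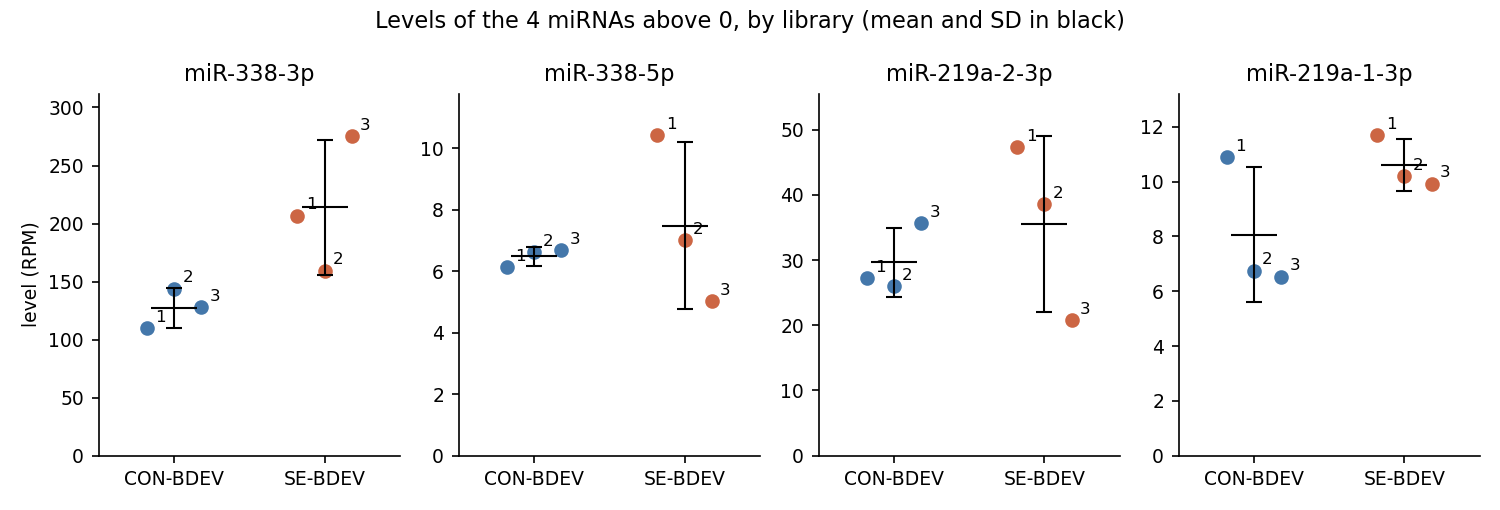
Level in RPM (vertical axis, from 0) of the 4 members above 0, for CON-BDEV (blue) and SE-BDEV (orange); points are libraries with their numbers, black bars the mean and SD (n = 3). For miR-338-3p the SE-BDEV points, 159.5 to 275 RPM, lie above the controls, while the groups overlap for the other 3 members.

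miR-219a-5p, the guide arm shared by Mir219a-1 and Mir219a-2 and the best known of the group, was listed at 0 in all 6 libraries. The smallest value listed in any library was 2 reads, and a listed 0 can mean fewer reads or a value removed before deposit. Other miRNAs known from many cell types were also listed at 0, among them miR-19b-3p in all 6 libraries and miR-24-3p in 4. The 0 of miR-219a-5p is therefore given as listed and not as a measured absence, and its difference between the groups could not be tested. The defining oligodendrocyte marker is thus without a usable value, and the label of the group rests here on miR-338-3p and the 3p arms of miR-219a.

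The opposite arms of both hairpins were present in every library. miR-219a-2-3p, the 3p arm of Mir219a-2, stood at 27.3, 26.0 and 35.7 RPM in CON-BDEV 1, 2 and 3 and at 47.3, 38.6 and 20.7 RPM in SE-BDEV 1, 2 and 3. The groups overlapped: SE-BDEV 1 and 2 lay above all controls and SE-BDEV 3 lay below all controls. The values rest on 120 to 444 reads per library. The means were 29.7 ± 5.28 RPM and 35.5 ± 13.5 RPM (SD, n = 3), and the log2 difference was 0.19 ± 0.35 (SE, limma adjusted p = 0.882), with a 95% interval of -0.58 to 0.95. Without SE-BDEV 1 the difference was -0.050, without SE-BDEV 3 it was 0.53 and without both libraries numbered 3 it was 0.66 ± 0.38 (limma adjusted p = 0.580), so its size and sign rest on single libraries. In the authors' deposited table the log2 fold change was 0.21 (adjusted p = 0.997).

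miR-219a-1-3p, the 3p arm of Mir219a-1, had a mean of 9.34 RPM and fell under the filter of a mean of 10 RPM. It stood at 10.9, 6.75 and 6.54 RPM in CON-BDEV 1, 2 and 3 and at 11.7, 10.2 and 9.93 RPM in SE-BDEV 1, 2 and 3. Here CON-BDEV 1 lay among the SE-BDEV values and the other controls lay below them. The means were 8.07 ± 2.46 RPM and 10.6 ± 0.960 RPM (SD, n = 3). With the filter lowered to a mean of 1 RPM, where 3 of 580 miRNAs were called (0.517%), its log2 difference was 0.39 ± 0.33 (SE, limma adjusted p = 0.766), and without both libraries numbered 3 the difference of the means was 0.31. The values rest on 43 to 110 reads per library.

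The balance between the 3p arms of the miR-219a hairpins varied from library to library. miR-219a-2-3p made up 71.4%, 79.4% and 84.5% of the pair in CON-BDEV 1, 2 and 3 and 80.1%, 79.1% and 67.6% in SE-BDEV 1, 2 and 3. The Mir219a-2 product was the larger one in all 6 libraries, and the groups overlapped in its share.

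An arm listed at 0 beside a detected partner was not rare in this table. Among arms whose partner arm on the same RefSeq hairpin had a mean of 5 RPM or more, 65 of 325 (20.0%) were listed at 0 in all libraries. Arms that come from more than 1 hairpin numbered 14 of these 325, and miR-219a-5p was the single one of the 14 at 0. Mir219a-2 is not in this count, since the RefSeq table pairs no 3p arm with it. The count also does not separate guide arms from the arms that are mostly degraded. It therefore does not give the share of guide arms listed at 0. miR-32-5p, an arm linked to myelin formation, was another arm at 0 beside a detected partner.

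**Figure D2:**
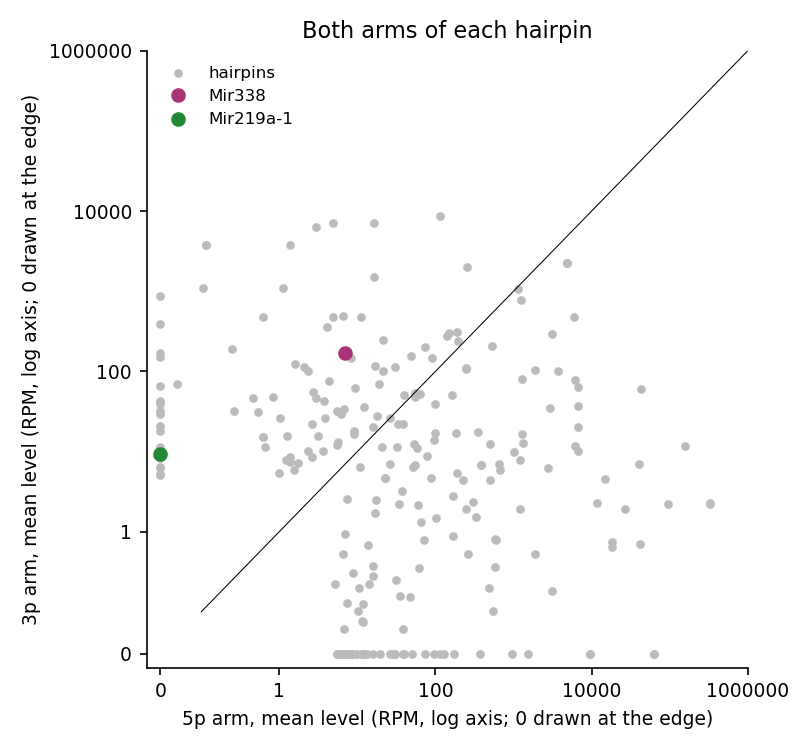
Mean level over the 6 libraries of the 5p arm (horizontal, log axis in RPM) and the 3p arm (vertical, log axis in RPM) for the 249 RefSeq hairpins with an arm of 5 RPM or more, with 0 drawn at the edge of each axis and the line marking equal arms. Mir219a-1 (green) sits on the left edge because miR-219a-5p is listed at 0, and Mir338 (purple) lies above the line, with more 3p than 5p.

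miR-338-5p, the other arm of Mir338, was the least abundant member above 0. It stood at 6.14, 6.63 and 6.69 RPM in CON-BDEV 1, 2 and 3 and at 10.4, 7.01 and 5.04 RPM in SE-BDEV 1, 2 and 3. The controls were close together and the SE-BDEV values lay on both sides of them. The means were 6.48 ± 0.303 RPM and 7.49 ± 2.73 RPM (SD, n = 3). Its mean of 6.99 RPM was under the filter, and with the filter at a mean of 1 RPM the log2 difference was 0.13 ± 0.36 (SE, limma adjusted p = 0.948). Leaving out SE-BDEV 1 gave -0.11, leaving out SE-BDEV 3 gave 0.36, and leaving out the 2 libraries numbered 3 together gave 0.37. The values rest on 27 to 98 reads per library.

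The 3p arm made up most of the miR-338 reads in every library. Its share was 94.7% (95% Wilson interval 92.4% to 96.3%), 95.6% (94.3% to 96.6%) and 95.04% (93.4% to 96.3%) in CON-BDEV 1, 2 and 3. In SE-BDEV 1, 2 and 3 it was 95.2% (94.2% to 96.0%), 95.8% (94.2% to 97.0%) and 98.2% (97.5% to 98.7%). These intervals take the smallest step between RPM values as 1 read, which no source states, and they cover counting error only, since reads of amplified libraries are not independent molecules. The interval of SE-BDEV 3 lay above those of the other 5 libraries. The group means were 95.1% ± 0.445 and 96.4% ± 1.59 (SD, n = 3, two-sided exact permutation p = 0.2, smallest possible 0.1). Leaving out SE-BDEV 3 took the difference of 1.28 percentage points to 0.38, and leaving out CON-BDEV 3 as well took it to 0.34. The share is a ratio within a library and does not depend on how libraries are scaled.

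SE-BDEV 3 also separated the members from each other. It had the highest miR-338-3p of all 6 libraries and the lowest miR-219a-2-3p and miR-338-5p. miR-338-3p stood at 4.03, 5.53 and 3.59 times miR-219a-2-3p in CON-BDEV 1, 2 and 3 and at 4.37, 4.13 and 13.3 times in SE-BDEV 1, 2 and 3. In 5 libraries this ratio thus lay between 3.59 and 5.53. SE-BDEV 3 had 6749631 reads, within the range of the other libraries, and the most miRNAs above 0.

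miR-219b-5p was listed at 0 in all 6 libraries, as was its partner miR-219b-3p. Of the other products from strands opposite the members' hairpins, miR-219c-3p was above 0 in 2 libraries, CON-BDEV 3 with 1.82 RPM and SE-BDEV 2 with 2.80 RPM. miR-3065-5p, from the strand opposite Mir338, reached 0.245 RPM in CON-BDEV 2, 1.22 RPM in CON-BDEV 3 and was listed at 0 in the rest. Levels from the opposite strands were thus at most a few RPM.

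**Figure D3:**
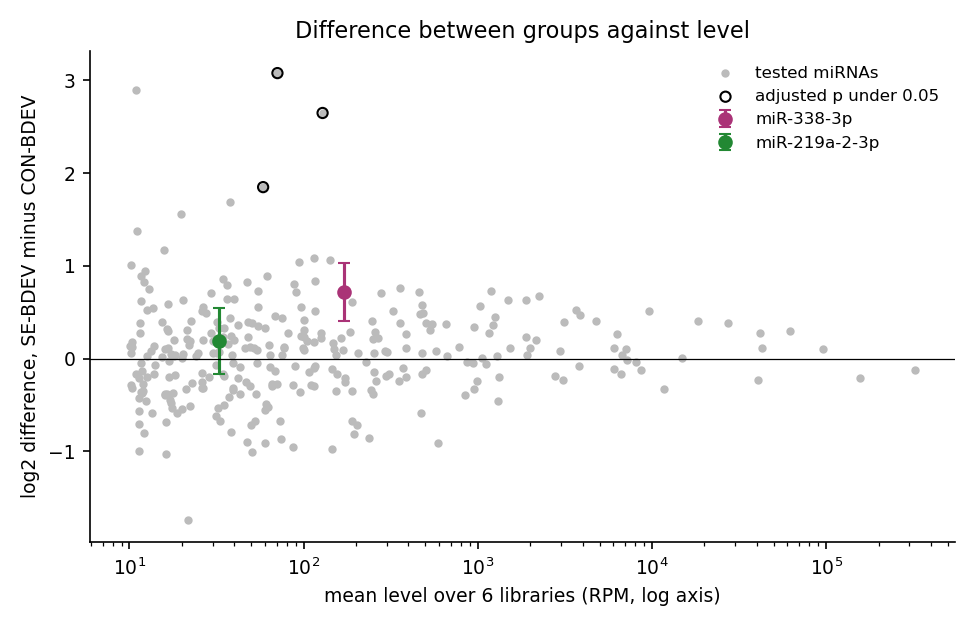
Log2 difference, SE-BDEV minus CON-BDEV on the log2(RPM + 1) scale, against mean level in RPM (log axis) for the 308 tested miRNAs, with circles around the 3 called ones and SE bars on the members. miR-338-3p at 0.72 and miR-219a-2-3p at 0.19 lie within the spread of uncalled miRNAs.

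Over the 6 libraries the members did not move as one. The Pearson r of log2(RPM + 1) was -0.0080 between miR-338-3p and miR-338-5p, -0.15 between miR-338-3p and miR-219a-2-3p, and 0.89 between miR-219a-2-3p and miR-338-5p. The r of -0.0080 and of -0.15 include SE-BDEV 3, which had the highest miR-338-3p and the lowest miR-338-5p and miR-219a-2-3p. In every other library miR-338-3p stood at 17.9 to 22.8 times miR-338-5p, and in SE-BDEV 3 at 54.7 times. The r without SE-BDEV 3 was not computed. All r values are descriptions over 6 points that share library totals. The 5 tested miRNAs whose pattern was most like that of miR-338-3p were miR-20a-5p (r = 0.95), miR-1a-3p (0.93), let-7i-5p (0.93), miR-1983 (0.92) and miR-126a-3p (0.91), with log2 differences from 0.38 to 1.17. Those most like miR-219a-2-3p were miR-92a-3p (r = 0.94), miR-365-3p (0.92), miR-28a-3p (0.88), miR-191-5p (0.88) and miR-342-5p (0.87), with log2 differences from -0.15 to 0.28. None of these 10 passed the threshold (limma adjusted p from 0.237 to 0.994).

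Other miRNAs of the oligodendrocyte lineage were counted in 3 lists. The list linked to differentiation holds miR-338-3p, miR-338-5p, miR-219a-5p, miR-219a-2-3p, miR-138-5p, miR-23a-3p with miR-23b-3p in a merged row, miR-32-5p, miR-7a-5p and miR-184-3p. Of its 9 rows 2 were listed at 0 and 6 were tested, 3 with higher and 3 with lower values in SE-BDEV and none past the threshold. The median log2 difference was -0.062, against 0.061 over all 308 tested miRNAs, of which 57.5% had higher values in SE-BDEV. Beside the members, miR-138-5p, which works with miR-219 and miR-338 in differentiating cells and is abundant in neurons, was at 0.042, miR-7a-5p at -0.17, the merged miR-23 row at -0.17 and miR-184-3p at -0.38. When the 10 most abundant miRNAs were left out of the scaling total, 46.8% of all tested miRNAs and 2 of the 6 had higher values in SE-BDEV, and 2 of the 6 did so with median-of-ratios scaling or quantile normalization. Leaving out 1 library moved this count between 1 (without SE-BDEV 1) and 4 (without CON-BDEV 3), with 2 without CON-BDEV 1 or SE-BDEV 3. The median then lay between -0.18 and 0.19, so neither the count nor the sign of the median holds over single libraries.

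The list linked to restraint of maturation had 5 tested members of 7, all 5 with higher values in SE-BDEV and none past the threshold. Over all 308 tested miRNAs 57.5% had higher values. The median log2 difference of the list was 0.18, against 0.061 over all 308. Its members miR-214-3p (mean 1.33 RPM) and miR-199a-5p (mean 0.611 RPM) were under the filter. miR-212-3p, an activity-induced miRNA of neurons, was at 0.80 (limma adjusted p = 0.438), miR-9-5p at 0.41, the merged miR-27 row at 0.18, miR-125a-3p at 0.082 and miR-145a-5p at 0.023. The count of 5 with higher values became 4 with median-of-ratios scaling or quantile normalization, and 3 when the 10 most abundant were left out of the scaling total, settings in which the share of all tested miRNAs with a higher SE-BDEV value was 49.0%, 48.4% and 46.8%. It was 2 without CON-BDEV 2, 5 without CON-BDEV 3 and 4 without any other single library. The list linked to precursor proliferation, from the miR-17 to miR-92 cluster, had 2 tested members of 6. miR-20a-5p had a control mean of 9.15 ± 0.550 RPM and an SE-BDEV mean of 22.3 ± 5.78 RPM (SD, n = 3), a log2 difference of 1.17 ± 0.34 (SE, limma adjusted p = 0.237), and miR-92a-3p had 0.28 (limma adjusted p = 0.782). miR-19a-3p and miR-19b-3p of this list were listed at 0 in all libraries. Its members miR-17-5p and miR-18a-5p were under the filter. miR-17-5p averaged 8.87 RPM over the controls against 9.09 RPM for SE-BDEV, and miR-18a-5p averaged 4.41 against 3.72 RPM. With the filter lowered to a mean of 1 RPM, 3 of 4 members of this list had higher SE-BDEV values. The median log2 difference of the list was then 0.14. Over the 580 miRNAs tested at that filter 56.0% had higher values, and the median was 0.061. Without both libraries numbered 3, the counts of tested members with higher values in the 3 lists were 3, 5 and 2, as with all libraries, while the median of the differentiation list was 0.076 in place of -0.062.

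Markers of other cells stood beside the members as follows. The miRNAs of microglia and leukocytes (miR-142a-3p, miR-142a-5p, miR-155-5p, miR-223-3p and miR-150-5p) summed to 124 to 161 RPM in CON-BDEV and 329 to 466 RPM in SE-BDEV, and 2 of the 4 tested, miR-155-5p and miR-142a-5p, passed the threshold, beside 0.974% of all tested miRNAs. All 5 were above 0 in some library. Of the 4 tested, 3 had higher SE-BDEV values and 1 had lower ones. The lower one was miR-150-5p, which averaged 76.7 RPM over the controls against 64.1 RPM for SE-BDEV. Its log2 difference was -0.27 (limma adjusted p = 0.769). The endothelial and mural list (miR-126a-3p, miR-126a-5p, miR-143-3p and miR-145a-5p) summed to 3598 to 5404 RPM in CON-BDEV and 4965 to 7620 RPM in SE-BDEV, with all 4 above 0 and none past the threshold. The astrocyte list (miR-26a-5p, miR-29a-3p and miR-193a-3p, the last listed at 0) summed to 18198 to 24346 RPM and 21458 to 34689 RPM, and the choroid plexus and ependymal list (miR-204-5p, miR-34b-5p, miR-34c-5p and miR-449a-5p) to 310 to 718 RPM and 547 to 793 RPM. Higher SE-BDEV values were found for 4 of 4 tested endothelial and mural, 2 of 2 astrocyte, 3 of 3 choroid plexus and ependymal and 5 of 6 neuronal miRNAs. Their median log2 differences were 0.41, 0.33, 0.81 and 0.31 in that order, and none passed the threshold. Over all 308 tested miRNAs 57.5% had higher values and the median was 0.061. Of the red blood cell list, miR-144-3p and miR-451a were listed at 0 throughout, which is likewise not a measured absence. The merged miR-486 row stood at 83.6 to 199 RPM and 102 to 111 RPM, with a log2 difference of -0.075. The part of these in the miR-338-3p values was not tested. In vesicles of mixed cell origin, more vesicles from a cell type and more of a miRNA per vesicle cannot be told apart.

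**Figure D4:**
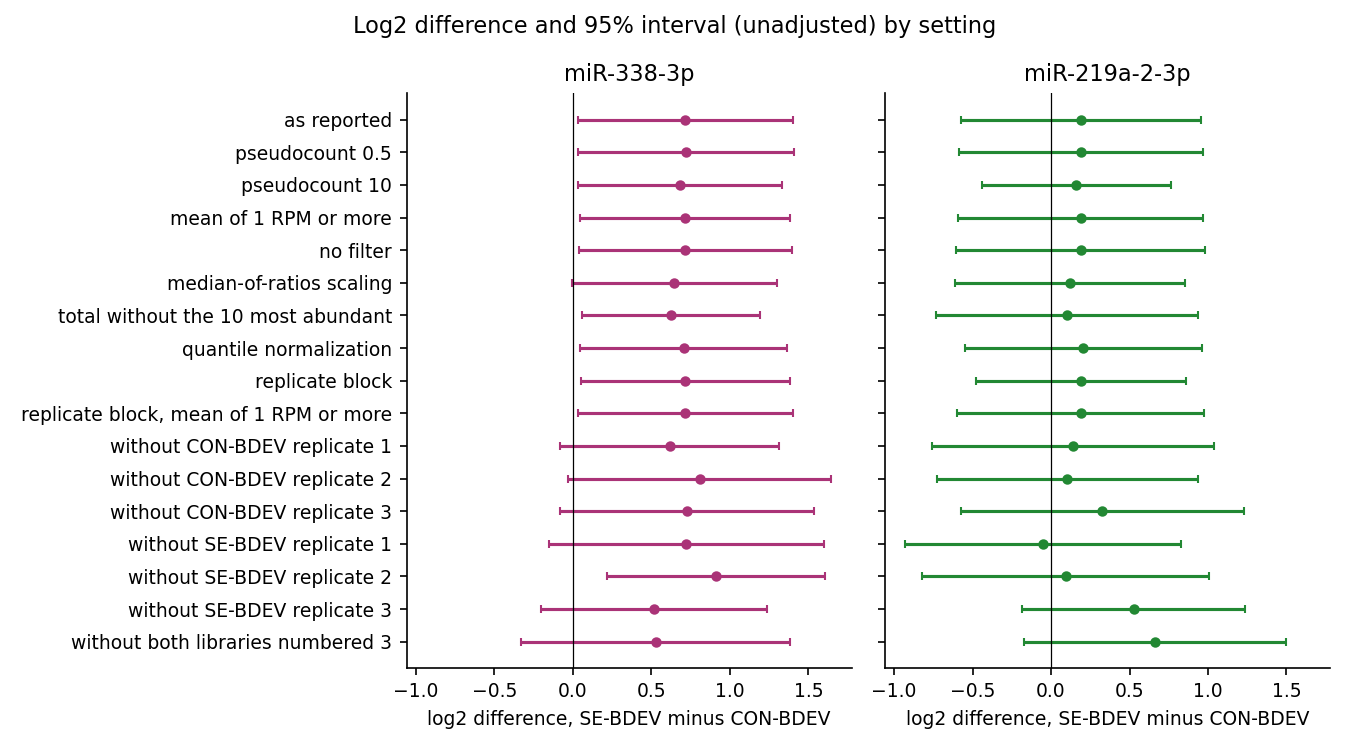
Log2 difference, SE-BDEV minus CON-BDEV (horizontal axis), with unadjusted 95% intervals, for miR-338-3p (left) and miR-219a-2-3p (right) under each processing setting or with libraries left out. miR-338-3p stays between 0.52 and 0.91 in all 17 fits shown, and miR-219a-2-3p ranges from -0.050 to 0.66.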

How the data were processed

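The authors deposited RPM values for 6 libraries. The submitters' processing notes name mm9 and DESeq2. The aligner, the counter and any use of molecular identifiers were not given in the sources used here. Within a library each RPM value was a whole multiple (tolerance 0.001) of a single step, taken as 1 read. No source states this and no value of 1 step is listed, so count models were left out, and read numbers and their intervals hold only if a step is 1 read. The authors also deposited their own comparison, with a mean signal, log2 fold changes and their errors, a test score and p-values.

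SE-BDEV was compared with CON-BDEV by limma 3.58.1 in R 4.3.3, two-sided, with the trend and robust options of eBayes, on log2(RPM + 1), a scale that understates changes of low miRNAs. Tests covered the 308 miRNAs whose mean reached 10 RPM, with Benjamini-Hochberg adjustment and a threshold of 0.05. The fit was tested on simulated data. Arm shares were compared by an exact permutation test (scipy 1.17.1). Figures used matplotlib 3.10.9.

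The members and lists were chosen with earlier results of these data known. Named miRNAs are the members, called list members, miRNAs sharing a seed with a member, and the 5 tested miRNAs most correlated with each tested member. miR-24-3p and the uncalled list members given with values fall outside this rule and were chosen after their values were seen. Other list members are named as lists.

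The groups share replicate numbers. The deviations from the group means correlated at 0.216, 0.202 and 0.462 for pairs 1, 2 and 3, all over the bound of 0.1. Unlike numbers gave 0.336 for CON-BDEV 2 with SE-BDEV 1 and 0.200 for CON-BDEV 1 with SE-BDEV 2. They gave -0.410 to -0.270 where a library numbered 3 took part. Without miR-24-3p the pairs 1, 2 and 3 gave -0.064, -0.061 and -0.081, and unlike numbers gave -0.00090 to 0.076. The correlations over the bound thus rest on miR-24-3p, and the labels do not state a pairing. The replicate block was fitted as an alternative.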

Additional observations from a re-analysis of the deposited data

How the results depend on the processing

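miR-338-3p had a higher mean in SE-BDEV and did not pass the threshold in any of 17 alternatives (adjusted p from 0.241, with the replicate block, to 0.753). Leaving out 1 library gave log2 differences of 0.52 to 0.91 for miR-338-3p and -0.050 to 0.53 for miR-219a-2-3p, which was negative without SE-BDEV 1 (-0.050) and positive in its other alternatives. For miR-338-5p the range was -0.11 to 0.36 and for miR-219a-1-3p 0.27 to 0.60. The difference in the miR-338 3p share was 0.38 to 1.88 percentage points. Against 3 called miRNAs, 10 were called with the replicate block, 7 in the authors' deposited table and 2 to 8 when 1 library was left out, the 8 without CON-BDEV 2; none was a member. The replicate block together with the filter at a mean of 1 RPM called 3. That setting, the runs without both libraries numbered 3 and the list counts under other scalings were chosen after seeing the data. The cause of these changes was not tested. The planned edgeR and DESeq2 fits were not run, because no value of 1 step is listed and whole reads could not be established. The part of depth in the members listed at 0 was not tested. miR-338-5p and miR-219a-1-3p rest on 27 to 110 reads per library.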
